A study of Mus musculus with 8 samples.

Results

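The genes described here are 37 mouse genes of the interferon response: both chains of the type I interferon receptor (Ifnar1, Ifnar2), the STAT2 and IRF9 subunits of the transcription factor complex ISGF3 (Stat2, Irf9), a pair of other interferon regulatory factors (Irf1, Irf7) and 31 interferon-stimulated effectors. They were chosen by name, with no measured value in the rule, out of 50686 gene IDs, and all 37 could be tested, with 5 to 7402 counts in a library. RNA had been sequenced from hematopoietic stem cells (HSCs), the rare marrow cells that maintain the blood lineages, of mice of the C57BL/6J strain. After lineage depletion and staining of CD117, Sca-1, CD48 and CD150, per the labels' protocols, a sorter divided the HSCs by light scatter. The Small gate took the smallest 10%, the Large gate the largest 10% and the Medium gate cells within 10% of the mean size, while All HSCs were not divided by size. Each library came from 10000 cells in G0/1, and each of the 4 groups had 2 libraries, numbered 1 and 2 in the titles. The labels name no allele, agent, age or sex for these groups. They also do not say whether the 2 libraries of a group came from separate mice, so the p-values cover the spread between libraries, which may be technical.

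Interferons are secreted proteins that warn cells of infection. Type I interferon bound to IFNAR1 and IFNAR2 activates the kinases JAK1 and TYK2 and through them ISGF3, which holds STAT2 and IRF9 and binds the interferon-stimulated response element (ISRE) of target genes. Interferon gamma acts largely through another element, GAS. In HSCs, brief interferon exposure is known to bring resting cells into cycle, and stem cells are known to keep some of the effector genes switched on without infection.

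Library totals ran from 13698362 counts in Small 2 to 16838448 in All 2. The libraries separated first by their number: on the leading principal component (39.5% of the variance) number 1 ran from -81.2 to -31.1 and number 2 from 0.984 to 106. Ranks of the sizes, and the differences so named, were therefore taken within each number. The defining HSC markers were present in every library, with Procr at 5.29 to 179 CPM (a gene's share of its library's counts, times 1000000, with scaling between libraries), Hlf at 25.2 to 409 and Mecom at 25.7 to 174, each lower in every library numbered 1 than in its size-matched library numbered 2. Other HSC markers were less uniform: Slamf1, Ctnnal1 and Gata2 were higher in number 1 within Small and Medium, and lower within Large and All. Granulocyte genes were abundant in all libraries, at a summed 3472 to 55909 CPM, although lineage-positive cells had been depleted.

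The promoters of the genes were searched for the letters of both elements. RefSeq promoters (GRCm38.p6, from 250 bases before to 50 after a transcription start) were matched for 28 of the 37 genes. The core of the ISRE, searched as GAAA, any 2 bases and GAAA again on both strands with overlapping matches counted, was in promoters of 15 of these 28 genes (53.6%), against 3.99% of all genes tested that have a promoter in the table. The letters of GAS, TTCNNNGAA, which read alike on both strands, were in promoters of 10 of 28 (35.7%), against 8.32%, and of these genes the GAS match overlaps an ISRE match in Bst2 alone. Of the effectors, 14 of 22 had the ISRE core. Of the ISGF3 subunits, Stat2 had it and Irf9 did not within these windows, and neither receptor chain did. A match describes letters and is not a measured binding site. The sequences below lie upstream of the start and are shown for genes whose values the results turn on: Isg15 carries 3 overlapping ISRE cores, Ifit1 carries 2 apart from each other, Rsad2 had the widest difference between the libraries numbered 1 and 2, Gbp2 and Stat2 were lowest in Large HSCs in both numbers, Bst2 was an exception to that order, and Irf1 has GAS letters and no ISRE core. Capitals mark the ISRE core, or GAS in Irf1, and each is read 5′ to 3′ on the gene's strand.
Isg15, chr4:156200845-156200926, minus strand: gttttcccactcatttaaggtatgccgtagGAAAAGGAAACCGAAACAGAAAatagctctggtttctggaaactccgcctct
Ifit1, chr19:34640755-34640843, plus strand: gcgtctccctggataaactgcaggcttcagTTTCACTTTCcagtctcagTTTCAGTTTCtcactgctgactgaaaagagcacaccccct
Rsad2, chr12:26456533-26456602, minus strand: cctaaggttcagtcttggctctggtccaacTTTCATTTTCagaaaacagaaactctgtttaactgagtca
Gbp2, chr3:142620574-142620643, plus strand: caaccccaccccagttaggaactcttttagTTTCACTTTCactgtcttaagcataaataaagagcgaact
Bst2, chr8:71537557-71537632, minus strand: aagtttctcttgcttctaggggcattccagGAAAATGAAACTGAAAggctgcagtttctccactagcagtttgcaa
Stat2, chr10:128270248-128270315, plus strand: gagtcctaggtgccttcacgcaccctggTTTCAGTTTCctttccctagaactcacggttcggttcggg
Irf1, chr11:53769894-53769962, plus strand: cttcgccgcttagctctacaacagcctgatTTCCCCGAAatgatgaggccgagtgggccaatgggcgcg

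The interferon genes were expressed in HSCs at levels that spanned a wide range. On the TPM scale, which allows for gene length, Irf1, a transcription factor that also responds to interferon gamma, was the most abundant of the 37 genes, with a mean of 218 TPM over the 8 libraries and a range of 101 to 407. Ifi27, which encodes a small mitochondrial protein, followed at 179 TPM (101 to 294), so that the ranges of these neighbours in the order overlapped. Ifnar2 had 106 TPM, Bst2 (tetherin, which holds budding virus at the cell surface) 99.0, and the GTPase gene Irgm1, needed for HSC maintenance in mice, 88.6. At the other end lay the antiviral dynamin-like GTPases, Mx1 at 1.7 TPM and Mx2, annotated as a polymorphic pseudogene, at 1.05. Of the ISGF3 subunits, Irf9 had rank 10 in the order at 71.5 TPM and Stat2 rank 22, at 23.1 TPM. The leading genes by mean TPM in the effector families were Ddx58 among the nucleic acid sensors (35.1 TPM), Ifit2 in the IFIT family (11.2), Oasl2 in the OAS family (78.5) and Isg15 in the ISG15 system (41.7).

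**Figure D1:**
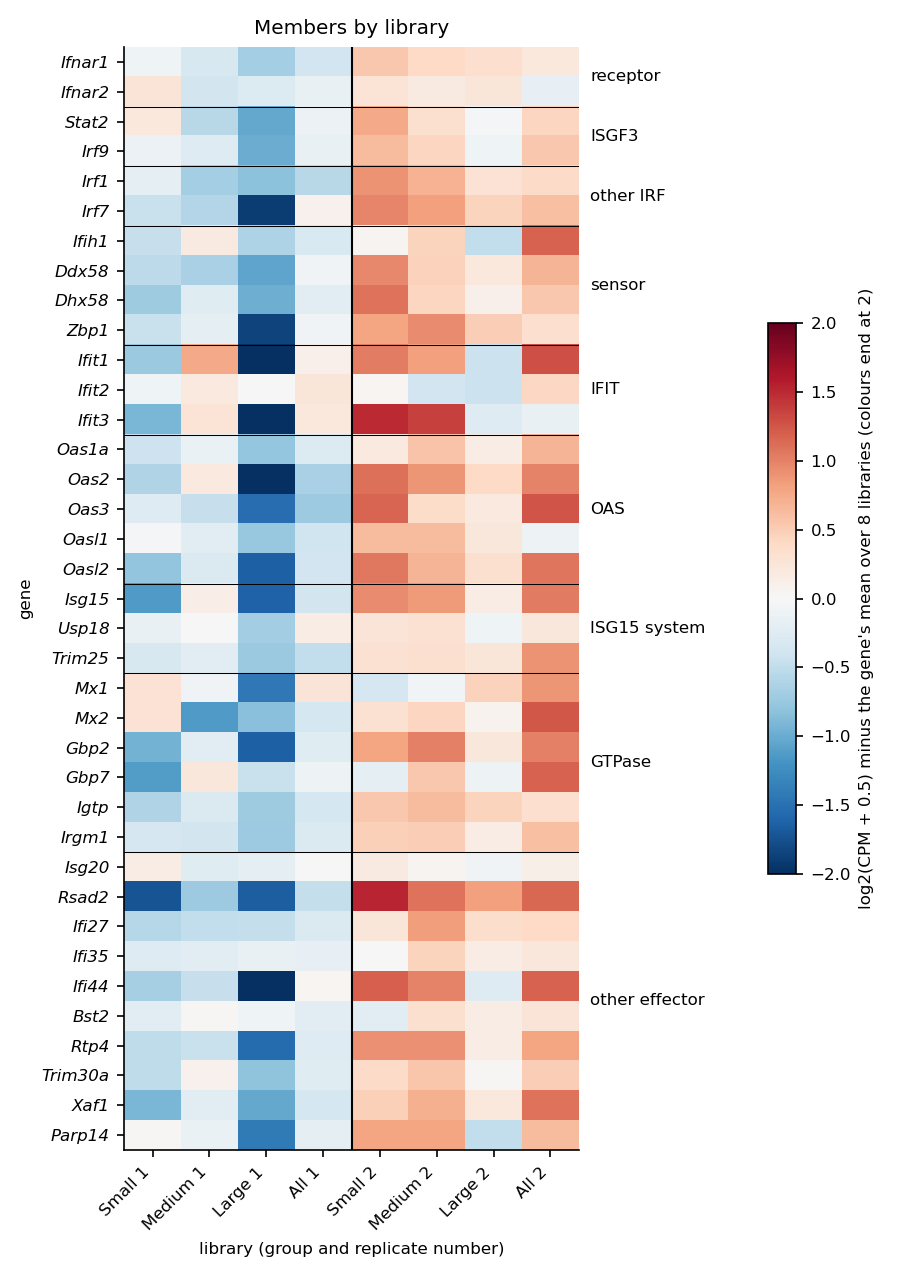
Relative level of the 37 genes (rows, grouped by role) in the 8 libraries (columns), as log2(CPM + 0.5) minus each gene's own mean over the libraries. Most rows are lowest in Large 1 and higher in the libraries numbered 2 than in those numbered 1.

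Differences in these genes passed the test between the replicate numbers, and none passed between sizes. With group and number in one edgeR fit, 27 of the 37 genes were higher in number 2 at an adjusted p under 0.05 and none was lower, where 24.6% of all 16066 genes tested passed in either direction (12.5% higher and 12.1% lower in number 2). The median log2 difference over the 37 genes was 0.92, beside -0.00 over all genes. In 33 of 37 genes, number 2 was above number 1 within each of the 4 groups (22.9% of all genes), and in 21 all 4 libraries numbered 2 lay above all 4 numbered 1 (11.6% of all genes); the latter count was 28 without Large 2 and 21 to 24 without any other library. The median was 0.89 within Small, 0.84 within Medium, 1.09 within Large and 0.77 within All. The labels do not say what the number stands for. The 4 libraries of a number are 4 different groups that may share an origin. The p-values between the numbers may therefore not measure the spread between independent samples of a number. An SD over the 4 libraries of a number also holds the differences between groups. In RNA from sorted populations, fewer cells of a kind and less RNA per cell cannot be told apart.

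Markers of other cell types moved with the number as well. Summed HSC markers ran from 321 to 895 CPM in number 1 and from 1002 to 2193 in number 2, with a median log2 difference of 0.88 over the 10 genes. Granulocyte markers went the other way, from 23830 to 55909 CPM in number 1 and from 3472 to 22198 in number 2 (median -1.79 over 10 genes). Monocyte and macrophage markers summed to 916 to 1945 CPM and 177 to 1129 CPM (median -0.38 over 11 genes), mostly from Ly6c2 except in All 2. The defining Csf1r ran from 18.6 to 121 CPM and was lower in number 2 within every group but Large. The defining C1qa, at 0.286 to 3.36 CPM, was higher in number 2 within every group but Medium. Markers of plasmacytoid dendritic cells, the marrow cells known for making interferon, summed to 53.0 to 98.3 CPM and 115 to 182 CPM, nearly all from Tcf4 and Runx2, while the defining Siglech stayed at 0.488 to 4.17 CPM. B cell markers summed to 37.8 to 57.7 CPM and 66.7 to 280 CPM, and T and NK markers to 395 to 975 CPM and 63.2 to 357 CPM, the latter mostly Nkg7, with the defining Cd3e at 0.0714 to 1.39 CPM. No defining marker was at 0 in every library. Their part in the differences of the interferon genes was not tested.

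Of the receptor chains, only Ifnar1 passed the edgeR test between the numbers. It had 119 CPM in Small, 101 in Medium, 78.6 in Large and 96.5 in All within number 1, and 184, 166, 160.4 and 147 within number 2. The lowest library numbered 2 was thus above the highest numbered 1 (log2 difference 0.75, SE 0.10, adjusted p = 0.00230). Ifnar2 had 129 CPM in Small, 84.1 in Medium, 89.6 in Large and 97.9 in All within number 1, and 131, 123, 128 and 96.9 within number 2, where the numbers overlapped (log2 difference 0.27, SE 0.13, edgeR adjusted p = 0.172). Ifnar2 shares exons with the readthrough gene model Gm21970, so its counts are uncertain.

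Stat2 and Irf9 were both higher in number 2. Stat2, the subunit that brings the transactivation domain, had 46.7 CPM in Small, 27.3 in Medium, 19.7 in Large and 37.4 in All within number 1, and 68.4, 50.8, 39.9 and 54.3 within number 2. It was higher in number 2 within every group, and only Small 1 reached into the range of number 2 (32.8 ± 11.8 against 53.4 ± 11.8 CPM, SD, n = 4 each; log2 difference 0.75, SE 0.14, edgeR adjusted p = 0.00779). The call ended when group was left out of the fit (log2 difference 0.70, adjusted p = 0.101). Irf9, the subunit that recognises DNA, had 97.7 CPM in Small, 88.4 in Medium, 53.0 in Large and 95.7 in All within number 1, and 165, 143, 100.2 and 154 within number 2. Its numbers did not overlap, though by a small margin between Small 1 and Large 2 (83.7 ± 20.9 against 140.4 ± 28.2 CPM, SD, n = 4 each; log2 difference 0.76, SE 0.09, edgeR adjusted p = 0.00151). Irf9 shares exons with Rnf31 on the same strand.

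The other interferon regulatory factors differed more between the numbers. Irf1 had 244 CPM in Small, 174 in Medium, 158 in Large and 189.5 in All within number 1, and 523, 456, 343 and 364 within number 2, with no overlap between the numbers (log2 difference 1.14, SE 0.09, edgeR adjusted p = 0.000401). Irf7, which amplifies type I interferon production, had 27.9 CPM in Small, 25.3 in Medium, 9.86 in Large and 40.5 in All within number 1, and 75.6, 67.7, 52.0 and 58.0 within number 2. Its numbers did not overlap either, and the widest gap was in Large (log2 difference 1.43, SE 0.27, edgeR adjusted p = 0.00913). The call for Irf7 was lost without either Small or either Medium library (adjusted p 0.0509 to 0.0611).

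**Figure D2:**
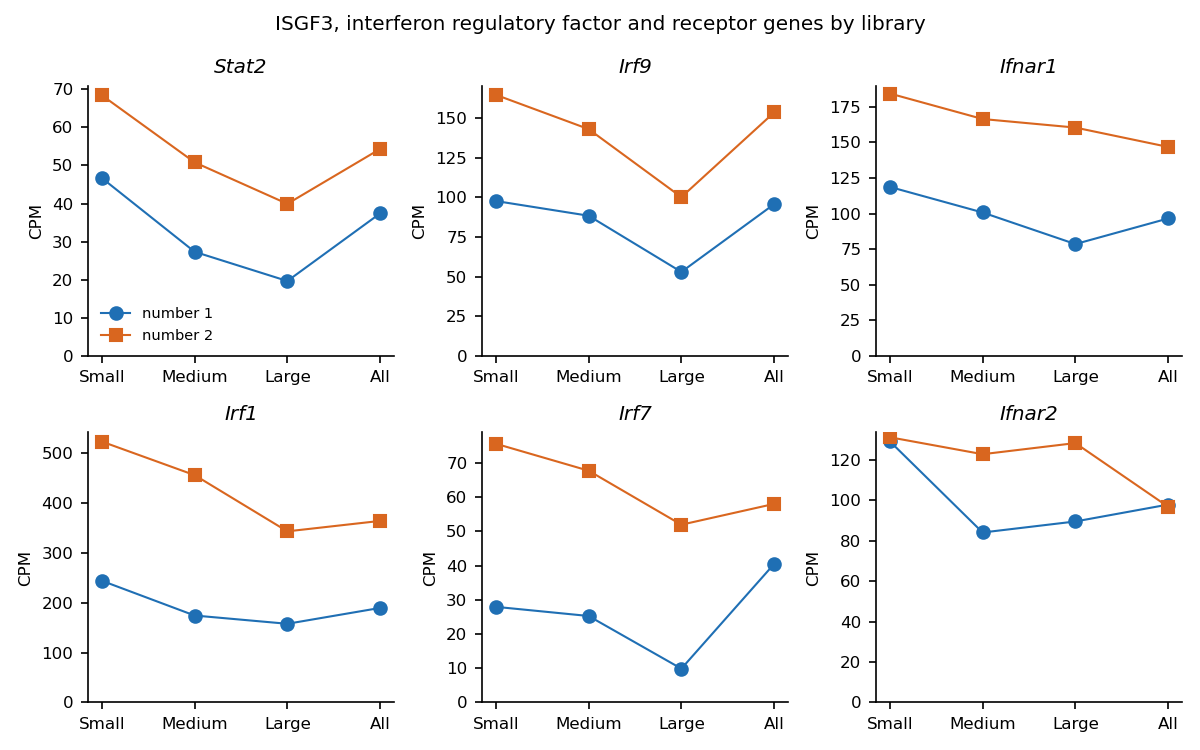
CPM of the receptor chains, the ISGF3 subunits and the other interferon regulatory factors in each library, by size group; lines join libraries of one number. For Stat2, Irf9, Irf1 and Irf7 the Large library is the lowest of its number, and every library numbered 2 is above its size-matched library numbered 1.

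Among the 31 effectors, 22 were higher in number 2 by the edgeR test (12.5% of all genes) and the median log2 difference was 0.99. By family, 3 of 4 sensors, 1 of 3 IFIT genes, 4 of 5 OAS genes, 2 of 3 genes of the ISG15 system, 4 of 6 GTPases and 8 of 10 other effectors passed. The genes that did not pass, beside Ifnar2, were Oasl1, Ifit3, Ifih1, Mx2, Bst2, Usp18, Isg20, Mx1 and Ifit2, the last being the one gene fitted lower in number 2.

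Rsad2 (viperin), an enzyme that makes a chain-terminating nucleotide, had the widest difference. It had 9.85 CPM in Small, 20.3 in Medium, 10.5 in Large and 24.2 in All within number 1, and 98.0, 72.7, 59.8 and 75.4 within number 2. The highest library numbered 1 was far below the lowest numbered 2 (log2 difference 2.31, SE 0.28, edgeR adjusted p = 0.00156). Ifi44 had 17.4 CPM in Small, 19.9 in Medium, 6.43 in Large and 28.6 in All within number 1, and 64.6, 55.5, 23.3 and 63.5 within number 2, so that Large 2 fell within the range of number 1 (log2 difference 1.59, SE 0.17, edgeR adjusted p = 0.00101). Oasl2, of the oligoadenylate synthetase-like family, had 43.2 CPM in Small, 61.4 in Medium, 24.0 in Large and 57.5 in All within number 1, and 157, 122, 93.9 and 159 within number 2. All libraries numbered 2 lay above those numbered 1 (log2 difference 1.57, SE 0.17, edgeR adjusted p = 0.000942).

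Isg15 encodes a ubiquitin-like protein that is joined to other proteins. It had 7.46 CPM in Small, 18.4 in Medium, 5.15 in Large and 13 in All within number 1, and 33.1, 30.9, 18.7 and 35.3 within number 2, and Large 2 was barely above Medium 1 (log2 difference 1.54, SE 0.26, edgeR adjusted p = 0.00500). Gbp2, a guanylate-binding GTPase that attacks pathogen vacuoles, had 26.4 CPM in Small, 44.5 in Medium, 16.3 in Large and 43.3 in All within number 1, and 89.4, 104, 60.4 and 104 within number 2. Its numbers did not overlap (log2 difference 1.53, SE 0.15, edgeR adjusted p = 0.000614). Rtp4, a Golgi chaperone induced by interferon, had 32.2 CPM in Small, 33.5 in Medium, 15.4 in Large and 38.2 in All within number 1, and 86.8, 86.6, 51.0 and 80.1 within number 2, also without overlap (log2 difference 1.39, SE 0.14, edgeR adjusted p = 0.000739). Rtp4 shares exons with Gm45338 on the same strand, so its counts are uncertain.

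Ddx58 encodes RIG-I, a sensor of viral RNA. It had 48.4 CPM in Small, 44.1 in Medium, 33.2 in Large and 66 in All within number 1, and 136, 96.4, 80.8 and 112 within number 2, with no overlap between numbers (log2 difference 1.16, SE 0.14, edgeR adjusted p = 0.00123). Irgm1 had 96.9 CPM in Small, 94.7 in Medium, 74.1 in Large and 99.7 in All within number 1, and 170.2, 173, 135 and 186 within number 2. It too separated the numbers (log2 difference 0.86, SE 0.09, edgeR adjusted p = 0.000743). Igtp (IRGM3), another immunity-related GTPase, had 42.0 CPM in Small, 51.9 in Medium, 38.5 in Large and 49.7 in All within number 1, and 93.2, 99.1, 86.7 and 81.0 within number 2 (log2 difference 0.99, SE 0.12, edgeR adjusted p = 0.00145). Igtp shares exons with Irgm2, and the sizes within a number lay close together.

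Xaf1, a proapoptotic factor, had 13.7 CPM in Small, 22.2 in Medium, 12.7 in Large and 20.4 in All within number 1, and 36.5, 43.2, 30.3 and 56.2 within number 2 (log2 difference 1.27, SE 0.16, edgeR adjusted p = 0.00158). Ifi27 had 61.5 CPM in Small, 65.2 in Medium, 65.8 in Large and 74.7 in All within number 1, and 109, 163, 117 and 121 within number 2 (log2 difference 0.92, SE 0.13, edgeR adjusted p = 0.00212). Neither gene overlapped between the numbers. Oas3, the largest oligoadenylate synthetase, had 13.9 CPM in Small, 11.9 in Medium, 5.50 in Large and 9.89 in All within number 1, and 37.9, 21.6, 19.1 and 40.4 within number 2 (log2 difference 1.53, SE 0.24, edgeR adjusted p = 0.00360). Trim30a, a ubiquitin ligase of the TRIM family, had 47.2 CPM in Small, 71.5 in Medium, 38.3 in Large and 56.9 in All within number 1, and 87.4, 98.6, 67.9 and 95.0 within number 2. Large 2 lay just below Medium 1 in Trim30a (log2 difference 0.73, SE 0.12, edgeR adjusted p = 0.00382).

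Dhx58 encodes LGP2, which tunes RIG-I signalling. It had 24.6 CPM in Small, 34.5 in Medium, 20.4 in Large and 34.9 in All within number 1, and 87.0, 54.9, 43.8 and 59.6 within number 2, with no overlap (log2 difference 1.09, SE 0.20, edgeR adjusted p = 0.00714). Oas1a had 36.2 CPM in Small, 44.2 in Medium, 27.9 in Large and 40 in All within number 1, and 55.3, 71.7, 53.7 and 77.3 within number 2 (log2 difference 0.80, SE 0.12, edgeR adjusted p = 0.00359). Trim25, the ubiquitin ligase that activates RIG-I, had 40.5 CPM in Small, 43.2 in Medium, 29.9 in Large and 35.9 in All within number 1, and 62.7, 63.3, 60.04 and 94.7 within number 2 (log2 difference 0.90, SE 0.16, edgeR adjusted p = 0.00665). Neither overlapped between the numbers, and Large was the lowest of each number in all 3 genes. The call for Ifit1 (log2 difference 1.44, SE 0.44, edgeR adjusted p = 0.0465) was lost without either Small, either Large or either All library (adjusted p 0.0804 to 0.183).

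Ifit2 stood apart from the rest of its family. In this family, IFIT1 binds viral RNA that lacks host cap marks. Ifit2, the most abundant of the family here, had 27.0 CPM in Small, 32.6 in Medium, 28.7 in Large and 34.0 in All within number 1. Within number 2 it had 29.4, 21.7, 21.0 and 38.4. Its numbers overlapped, with the higher library numbered 1 in Medium and Large and numbered 2 in Small and All (log2 difference -0.18, SE 0.19, edgeR adjusted p = 0.533). Ifit1 had 4.93 CPM in Small, 14.8 in Medium, 0.786 in Large and 9.26 in All within number 1, and 17.9, 15.5, 6.25 and 21.7 within number 2. Ifit3 was scarcer, at 0.429 to 9.997 CPM. Reads of Ifit3 and its near-identical copy Ifit3b, and of Oas1a and Oas1g, were split by estimation and are uncertain.

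**Figure D3:**
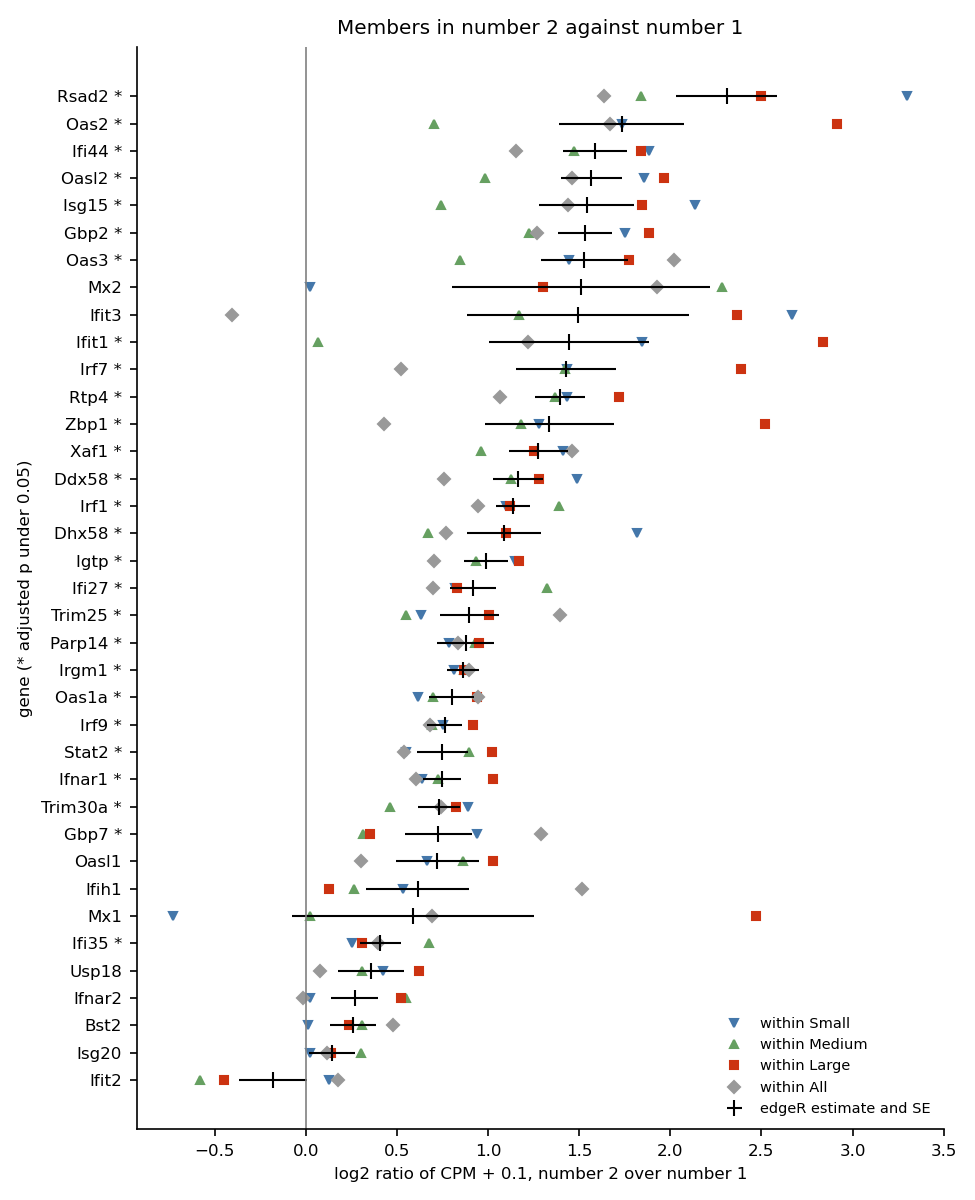
Fitted log2 difference of number 2 against number 1 for each of the 37 genes, from edgeR with group and number as terms. Ticks are the estimates and bars the standard error, and an asterisk beside a gene name marks an adjusted p under 0.05. The other markers are log2 ratios of CPM + 0.1 within each group. All estimates but that of Ifit2 lie above 0, from Isg20 (0.14) to Rsad2 (2.31).

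Ranks of the sizes, and the counts and medians so named, were taken within each number because most of these genes differed between the numbers. The edgeR tests between sizes had group as the only term unless the replicate block is named. Their standard errors and p-values therefore hold the gap between the numbers. Large HSCs had the lowest relative level of interferon genes. In 23 of 37 genes the Large library was the lowest of the 4 groups in both numbers, against 12.9% of all genes, and these 23 held Stat2, Irf9, Irf1, Irf7 and 19 of the 31 effectors. Small was the lowest in both numbers in 3 genes, against 11.9% of all genes, and Medium and All in none (6.48% and 6.49% of all genes). With All left out of the ranking, as chosen after the values were seen, Large was the lowest of the sizes in both numbers in 27 of 37 genes, against 16.8% of all genes. None of these differences passed a test for a single gene, as given next.

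Against Small, Large HSCs had a median log2 difference of -0.57 over the 37 genes, beside 0.00 over all genes, and -0.55 within number 1 and -0.48 within number 2. Large was lower within both numbers in 30 of 37 genes (30.9% of all genes were lower in both) and higher in 4 (32.9%). The 2 Large libraries were both under the 2 Small ones in 6 genes (14.7% of all genes), namely Ifnar2, Stat2, Ifih1, Mx2, Isg20 and Parp14, and above them only in Bst2 (17.7%). By edgeR none of the 37 genes, and 0% of all genes, had an adjusted p under 0.05, and 1 gene had an unadjusted p under 0.05 (3.15% of all genes). With the replicate number as a block, 0 genes were called and 16 of 37 had an unadjusted p under 0.05 (17.4% of all genes), with a smallest adjusted p of 0.0654. DESeq2 and limma-trend, run with group as the only term and so without the block, also called 0 of 37. The pooled median depended on single libraries because leaving one out unbalances the numbers: it was 0.11 without Small 2, -0.12 without Large 1, -0.86 without Small 1 and -1.31 without Large 2.

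The 37 differences in Large against Small ran from -1.90 to 0.31. The median of the ISGF3 subunits Stat2 and Irf9 was -0.86, and -1.06 within number 1 and -0.75 within number 2. Stat2 was lowest in Large and highest in Small in both numbers (log2 difference -0.95, SE 0.47, edgeR adjusted p = 0.975), and its Large and Small libraries did not overlap. Irf9 was in the same order in both numbers, from Small through All and Medium down to Large, although Large 2 was above Small 1 (log2 difference -0.78, SE 0.45, edgeR adjusted p = 0.975). Irf1 was likewise highest in Small and lowest in Large in both numbers (log2 difference -0.61, SE 0.63). The receptor chains differed less: the median of Ifnar1 and Ifnar2 was -0.30, and -0.56 and -0.12 within the numbers. With the replicate block, Stat2 and Irf9 both had an edgeR unadjusted p under 0.05 (17.4% of all genes), with a smallest adjusted p of 0.0678. So had Irf1 and Irf7 (smallest adjusted p 0.0788) and 1 of the 2 receptor chains (0.215).

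Parp14, a mono-ADP-ribosyltransferase of the interferon response, had the smallest p in Large against Small. It had 23.3 CPM in Small, 21.1 in Medium, 8.36 in Large and 20.1 in All within number 1, and 40.3, 40.2, 16.2 and 35.9 within number 2. Both Large libraries were below all 6 others, and the log2 difference was nearly the same within number 1 (-1.47) and within number 2 (-1.31). The fitted difference was -1.37 (SE 0.54, edgeR unadjusted p = 0.0389, adjusted p = 0.975; 0.0654 with the replicate block). Parp14 shares exons with Gm49730 on the same strand. Ifi44, whose values stand above, had a larger fitted difference (-1.46) with a wider standard error (0.89), which holds the gap between the numbers. Within the numbers its differences lay close together, at -1.42 and -1.47. Rtp4 had -0.84 (SE 0.78), Oasl2 -0.76 (SE 0.87) and Gbp2 -0.59 (SE 0.84) in Large against Small, each negative within both numbers. Each standard error, which holds the gap between the numbers, was near or above the difference. Leaving out Small 2 unbalances the numbers, and the signs of these 3 genes and of Irf1 then turned (0.047, 0.45, 0.54 and 0.038).

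By family, all 4 sensors, all 5 OAS genes and all 3 genes of the ISG15 system had less in Large than in Small within both numbers, as had Ifit1 and Ifit3, 4 of 6 GTPases and 6 of 10 other effectors. The family medians were -0.63 for sensors, -1.69 for IFIT, -0.76 for OAS, -0.44 for the ISG15 system, -0.30 for GTPases and -0.32 for other effectors. The 4 genes higher in Large within both numbers were Bst2, Gbp7, Ifi27 and Ifi35. Bst2 had 44.0 CPM in Small, 51.9 in Medium, 48.2 in Large and 43.8 in All within number 1, and 44.3, 64.4, 56.7 and 61.1 within number 2. Gbp7, a guanylate-binding GTPase, had 22.0 CPM in Small, 56.5 in Medium, 35.0 in Large and 44.8 in All within number 1, and 42.3, 70.3, 44.8 and 109.8 within number 2. Its exons overlap those of Gm43802 on the same strand, so its counts are uncertain. Bst2 was thus highest in Medium and Gbp7 lowest in Small, and Ifi27 and Ifi35 were lowest in Small too.

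**Figure D4:**
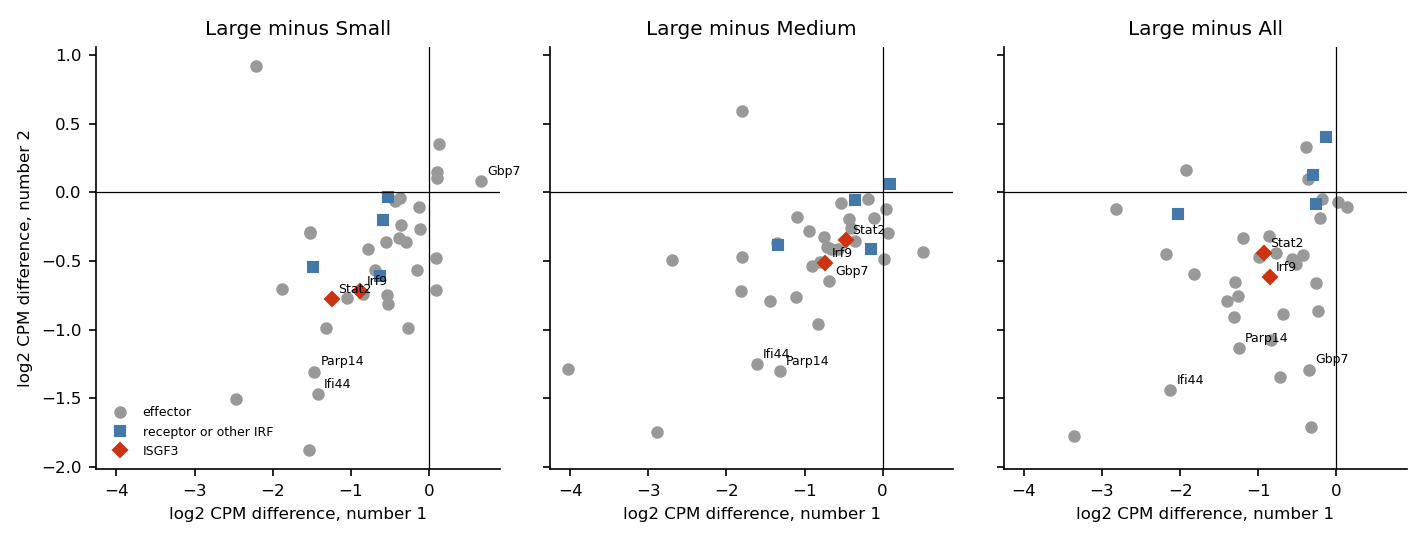
Difference of log2 CPM (prior count of 2) between Large and each other group within number 1 (x axis) and within number 2 (y axis), 1 point per gene, for the 37 genes. Points in the lower left were lower in Large in both numbers: 30 genes against Small, 31 against Medium and 30 against All.

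The same Large libraries also stood against Medium and All, so these comparisons share samples with the one against Small. Against Medium the median was -0.48 (-0.74 within number 1 and -0.41 within number 2, -0.01 over all genes), and 31 of 37 genes were lower in Large within both numbers (33% of all genes). Both Large libraries lay below both Medium libraries in 7 genes (17.2% of all genes): Ifih1, Ifit1, Ifit3, Usp18, Gbp7, Trim30a and Parp14. By edgeR none of the 37 genes was called (0% of all genes), and Parp14 alone had an unadjusted p under 0.05 (log2 difference -1.31, SE 0.54, adjusted p = 0.989; 1.87% of all genes). With the replicate block 15 had an unadjusted p under 0.05 (14.8% of all genes), with a smallest adjusted p of 0.138. Without the block, DESeq2 and limma-trend called 0. Stat2 had a log2 difference of -0.39 (SE 0.46) and Irf9 -0.60 (SE 0.45). With the numbers unbalanced, the sign of Stat2 turned without Medium 2 (0.086) or Large 1 (0.0054). The median was -0.086 without Medium 2, -0.056 without Large 1, -0.84 without Medium 1 and -1.13 without Large 2.

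Against All HSCs the median was -0.62 (-0.77 within number 1 and -0.47 within number 2, -0.03 over all genes), and 30 of 37 genes were lower in Large within both numbers (32.6% of all genes). Both Large libraries lay below both All libraries in 9 genes (16.2% of all genes), among them all 3 IFIT genes. By edgeR none of the 37 genes was called (0% of all genes), and 0 had an unadjusted p under 0.05 (3.14% of all genes). With the replicate block 18 had an unadjusted p under 0.05 (19.8% of all genes), with a smallest adjusted p of 0.0778. Without the block, DESeq2 and limma-trend called 0. Without the filter on low counts, Ifi44 alone passed edgeR (log2 difference -1.59, adjusted p = 0.0298, in place of -1.63 and 0.885). Stat2 had -0.62 (SE 0.46) and Irf9 -0.70 (SE 0.45). The median was -0.14 without Large 1, -0.12 without All 2, -0.92 without All 1 and -1.23 without Large 2.

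Between Medium and Small HSCs no gene passed the test, and the effectors and regulators had different counts of higher and lower genes. The comparison had a median of 0.00 over the 37 genes (0.16 within number 1 and -0.01 within number 2), with 13 genes higher and 11 lower within both numbers (30.1% and 29.3% of all genes). In 3 genes both Medium libraries lay above both Small libraries and in 2 both lay below (16.6% and 14.3% of all genes). All 6 receptor and transcription factor genes were among the 11 lower, with Stat2 at -0.56 (SE 0.46), while the effectors were 13 higher and 5 lower. Gbp7 differed most in the other direction (0.98, SE 0.49; 1.36 within number 1 and 0.73 within number 2). None of the 37 genes, and 0% of all genes, was called by edgeR, with 0 at an unadjusted p under 0.05 (4.33% of all genes), 5 with the replicate block (12.5% of all genes), and 0 called by DESeq2 or limma-trend. Small was the highest of the 4 groups in both numbers in 8 genes (9.69% of all genes): Ifnar1, Ifnar2, Stat2, Irf9, Irf1, Isg20, Oasl1 and Parp14.

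Small against All had a median of -0.10 (-0.24 and 0.03 within the numbers), with 9 genes higher and 13 lower in Small within both numbers (26.7% and 31.3% of all genes). The 9 included Stat2, Irf9, Irf1 and both receptor chains. By edgeR none of the 37 was called (0% of all genes), and Gbp7 alone had an unadjusted p under 0.05 (log2 difference -1.27, SE 0.49, unadjusted p = 0.0368, adjusted p = 1; 3.96% of all genes). Medium against All had a median of -0.04 (-0.02 and -0.10 within the numbers), with 7 genes higher and 11 lower within both (24.6% and 24.9% of all genes), 0 called and 0 at an unadjusted p under 0.05 (0% and 1.63% of all genes). With the replicate block 4 and 0 of the 37 had an unadjusted p under 0.05 (11.5% and 5.26% of all genes). Without the block, DESeq2 and limma-trend called 0 of 37 in both comparisons. Summed over the 31 effectors, the level was 755 TPM in Small, 905 in Medium, 579.8 in Large and 844 in All within number 1, and 1708, 1673, 1176 and 1835 within number 2.

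Marker genes moved with size too, and within each number the Large library had the lowest sum of HSC markers. The sum was 736 CPM in Small, 895 in Medium, 321 in Large and 813 in All within number 1, and 1773, 1375, 1002 and 2193 within number 2, and the median of the 10 HSC markers in Large against Small was -1.08 within number 1 and -0.73 within number 2. Granulocyte markers had medians of -0.37 and 0.82 in the same comparison, B cell markers -0.54 and 2.51, and plasmacytoid dendritic markers -0.51 and -0.56. Large 2 had the highest sum of B cell markers, with Cd79a at 64.8 CPM where the other libraries had 2.07 to 17.4. Their part in the lower interferon genes of Large was not tested.

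**Figure D5:**
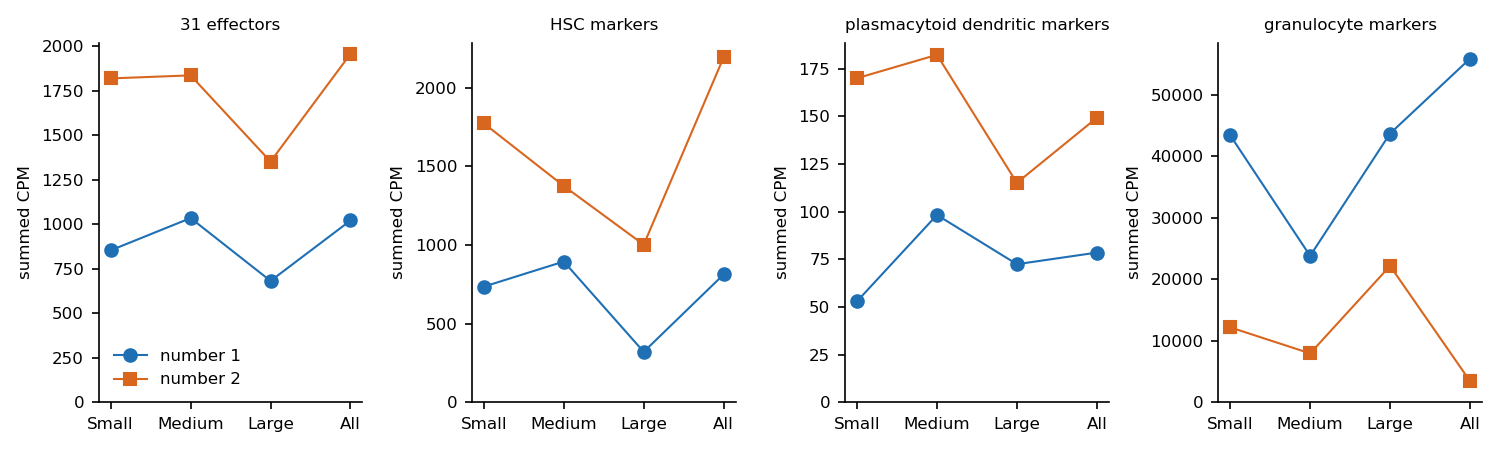
Summed CPM by library of the 31 effectors and of HSC, plasmacytoid dendritic and granulocyte markers, by size group and number. The Large libraries have the lowest effector sum of each number (683 and 1353 CPM) and the lowest sum of HSC markers (321 and 1002 CPM).

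Other genes of the pathway were read from lists set beside the 37. Among 9 ligands, Ifna1, Ifna4, Ifnk, Ifnl2 and Ifnl3 had no count in any library, and Ifna2 and Ifnb1 had counts only in Medium 1 (0.250 CPM each). A count of 3, the least taken as detection, is 0.169 to 0.214 CPM in these libraries, so lower levels were not detectable at this depth. Ifng reached 3.44 CPM in Medium 1 and lay between 0 and 1.41 elsewhere. Of 16 transducers, 4 were higher and none lower in number 2 by edgeR (12.5% of all genes were higher and 12.1% lower). Among them, Jak1, the kinase bound to the receptor, had 374 CPM in Small, 348 in Medium, 307 in Large and 394 in All within number 1, and 575, 497, 412 and 556 within number 2. Every library numbered 2 was above every library numbered 1 (log2 difference 0.51, SE 0.08, edgeR adjusted p = 0.00287), and Large was the lowest group in both numbers. Of 5 feedback genes 3 were higher, among them Socs1, an inhibitor of JAK kinases (log2 difference 1.34, SE 0.22, edgeR adjusted p = 0.00443). Of 29 further interferon-stimulated genes 19 were higher and 1, Ifi47, was lower (-0.28, SE 0.09).

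Among these further genes, Ly6a is both interferon-inducible and the gene of Sca-1, one of the antigens used in the sort. It had 45.7 CPM in Small, 90.4 in Medium, 20.4 in Large and 57.6 in All within number 1, and 288, 366, 186 and 307 within number 2, so every library numbered 2 was above every one numbered 1 and Large was lowest in each number (log2 difference between numbers 2.56, SE 0.18). Shisa5 and Ifitm1 had differences of 1.92 (SE 0.08) and 1.87 (SE 0.20) between the numbers and were lowest in Large as well. None of the pathway genes was called between sizes by edgeR (0% of all genes); of the 29 further interferon-stimulated genes, 16 had less in Large than in Small within both numbers, with a median of -0.33. Cgas, a sensor of DNA, was the one transducer highest in Large in both numbers, at 31.5 and 29.3 CPM.

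The genes with the ISRE core in their promoter were set beside those without it, as a description. The 15 genes with it had a median log2 difference between the numbers of 0.99, with 12 called by edgeR, and the 13 with a promoter but no match had 0.76, with 9 called, all of them higher in number 2 (12.5% of all genes). In Large against Small the medians were -0.59 with the core and -0.34 without it, but the order turned within number 1 (-0.39 and -0.59), held within number 2 (-0.57 and -0.42) and nearly vanished with the replicate block (-0.41 and -0.39). Both groups had most members lower in Large within both numbers (12 of 15 and 11 of 13, where 30.9% of all genes were lower in both). Isg15, with its run of 3 overlapping cores, and Ifit1, with 2 separate ones, were lowest in Large in both numbers, whereas Bst2, with 2 overlapping cores, was not.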

How the data were processed

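Total RNA of 8 libraries of sorted mouse HSCs was made into cDNA with a low-input kit, per the labels' protocols. Tools named in the submitters' processing notes are RSEM 1.3.0, STAR 2.5.3a and SAMtools 1.3, with the build mm10 and no roles; the annotation release and any use of strand are not given in the sources used here. Estimated counts per gene were deposited by the authors as whole numbers not scaled between libraries, beside log2(TPM + 1) values. Without stated strand, reads of Irf1, Irf7, Dhx58, Oasl1, Usp18, Gbp2 and Ifi35 cannot be told from those of an overlapping gene on the other strand. Symbols and gene types came from GENCODE M21 (50376 of 50686 IDs matched), and promoters from RefSeq.

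The counts were tested with edgeR 4.0.16 in R 4.3.3 (quasi-likelihood, robust, TMM scaling, group as the only term, 4 residual degrees of freedom) over the 16066 genes that passed filterByExpr with a minimum count of 10. P-values are two-sided and adjusted by Benjamini-Hochberg over all genes tested, with a threshold of 0.05. The difference between replicate numbers came from a fit with group and number (3 residual degrees of freedom). CPM values are TMM-scaled and relative within a library, so they do not give RNA per cell; differences within a number are of log2 CPM with a prior count of 2. Over all genes, the difference between number 2 and number 1 correlated at 0.358 to 0.439 between every pair of groups, so the numbers were taken to pair the libraries, although the labels do not state what they mark. Floors of 3 counts cover counting error only, since amplified reads are not independent molecules.

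The 37 genes, the pathway and marker lists and the tests were chosen with earlier results of these data known. Values in every library are given for the receptor chains, ISGF3 subunits and interferon regulatory factors, the member with the highest mean TPM in each effector family, and members with an unadjusted p under 0.05 between sizes or the smallest adjusted p in any comparison (at most 20). Bst2 and Ifit1, outside this rule, were chosen after their values were seen. Alternatives were RLE size factors, no filter, a minimum count of 50, DESeq2 1.42.0, limma-trend (limma 3.58.1) on the deposited log2 values, the replicate block, only the groups compared, and leaving out each library. DESeq2 and limma-trend had group as the only term between sizes, and group and number between the numbers. The edgeR fit with group as the only term was run on simulated counts that had no difference between the numbers. That run therefore does not show how the fit performs with the gap between the numbers seen here. HSCs of drug-treated mice named in the series design were not analysed here. A gene of the transducer list is not reported here.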

Additional observations from a re-analysis of the deposited data

How the results depend on the processing

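In the fit with a replicate block, 0 of the 37 genes were called in any size comparison, as without it, and the medians were -0.59 in Large against Small, -0.55 in Large against Medium and -0.74 in Large against All; the block changed no call. On the deposited log2(TPM + 1) values, limma-trend gave medians of -0.64 in Large against Small (-0.11 over all genes) and 1.08 between the numbers (0.12 over all genes). Without the filter on low counts, 1 gene, Ifi44, was called in Large against All. The share of all genes called between the numbers was computed for the main fit alone (12.5% higher in number 2). The counts that follow therefore cannot be set against all genes. Genes higher in number 2 numbered 21 to 31 over the alternatives: 21 with group left out of the fit (Gbp7, Ifi35, Ifit1, Parp14, Stat2 and Zbp1 lost), 29 by DESeq2, 31 by limma-trend, and 21 to 26 with a library left out.

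Leaving out 1 library each unbalances the numbers, and the lone library is assumed to vary like the others. The median then ran from -1.31 to 0.11 in Large against Small, from -1.13 to -0.056 in Large against Medium, from -1.23 to -0.12 in Large against All, from -0.48 to 0.68 in Medium against Small, from -0.69 to 0.44 in Small against All, from -0.42 to 0.57 in Medium against All, and from 0.92 to 1.01 between the numbers. Single genes whose sign turned ran from -1.28 to 0.038 (Irf1), -1.95 to 0.047 (Rtp4), -1.83 to 0.54 (Gbp2; 0.035 without Large 1) and -2.06 to 0.45 (Oasl2) in Large against Small. In Large against Medium they ran from -0.99 to 0.086 (Stat2; 0.0054 without Large 1), -0.999 to 0.48 (Irf1; 0.10 without Large 1) and -1.93 to 0.012 (Oasl2), and in Large against All from -0.81 to 0.40 (Irf1; 0.32 without Large 1) and -2.17 to 0.036 (Oasl2). With 2 libraries a group and the number moving the same genes, a size difference of single genes within the spread could not be told from none.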

Other observations

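Of the listed interferon regulatory factors outside the 37 genes, Irf2 was lowest in Large in both numbers, and Irf3, Irf5 and Irf8 were not. Irf8, a regulator of monocyte and dendritic lineages, did not follow the order of Irf1, Irf7 and Irf9. It had 146 CPM in Small, 54.2 in Medium, 108 in Large and 35.3 in All within number 1, and 56.8, 55.4, 118 and 12.9 within number 2. It was lowest in All in both numbers, with log2 differences of 2.23 (SE 0.58) in Large against All and 2.07 (SE 0.58) in Small against All, neither past the edgeR threshold (adjusted p 0.885 and 1). Csf1r, a monocyte marker, was lowest in All 2, at 18.6 CPM, and highest in Small 1, at 121. Within number 1 it was lowest in Medium, at 39.9 CPM against 43.5 in All. The monocyte and macrophage list did not share one order, as C1qa, C1qb and Spic were higher in All 2 than in Medium 2 and Large 2.

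Samd9l, an interferon-inducible brake on growth factor signalling, had 9.40 CPM in Small, 29.6 in Medium, 11.3 in Large and 22.9 in All within number 1, and 9.35, 13.4, 9.54 and 42.9 within number 2. Both Small and both Large libraries lay below both Medium and both All libraries, so unlike most of the 37 genes it was low at both ends of the size range. Neither Small against All (-1.81, SE 0.50, edgeR adjusted p = 1) nor Large against All (-1.66, SE 0.49, adjusted p = 0.885) passed the threshold. These genes were singled out after their values were seen.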
